A study of Mus musculus with 15 samples.

Results

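Liver RNA of the group labelled HFD-337 was compared with that of the group labelled HFD-338 across all genes. Each group has 3 libraries, and together they make up 6 of the 15 libraries of the series. Membership follows the labels alone, so no measured value chose the libraries. Both groups received a high-fat diet, by which the series models metabolic dysfunction-associated steatotic disease of the liver (MASLD) in mice. HFD-337 carries the number of Gc337, the agent that the series names for knockdown of STK25. The labels do not explain the number in HFD-338, nor the letters NS in HFD-NS, the high-fat diet group used below for levels beside both. The remaining groups, SD-NS (standard diet) and HFD-Res (resmetirom on high-fat diet), entered the same statistical fit but are not compared here. Strain, sex, age, dose, duration and hour of sampling are not in the labels, and neither is a statement that each library is a separate animal. The adjusted p-values below therefore rest on the spread between libraries within all 5 groups fitted, which may be technical.

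STK25 is a serine/threonine kinase that sits on the lipid droplets of hepatocytes and takes part in lipid storage, and with its close relatives STK24 and STK26 it joins the STRIPAK phosphatase complex. Antisense oligonucleotides bind a transcript by base pairing, and many designs lead to its cleavage by RNase H1. Fatty liver disease can progress to inflammation, scarring by activated stellate cells, and a ductular reaction, in which cells with bile duct markers expand. The labels do not state the chemistry of Gc337.

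The HFD-337 libraries held 4681937, 8995337 and 5060839 counts (replicates 23, 26 and 27), and the HFD-338 libraries 7961529, 7079830 and 7100274 (replicates 17, 18 and 19). Values below keep that order. Levels are CPM, that is, counts scaled to the library's size by TMM, and fold changes are log2 of HFD-337 over HFD-338 from edgeR. The words rose and fell describe HFD-337 relative to HFD-338, not a change from HFD-NS. In a multidimensional scaling of all 15 libraries, HFD-337 replicate 23 stood apart from its group. It lay at -0.92 on the first dimension, against -0.17 and -0.20 for HFD-337 replicates 26 and 27, and -2.02, -2.04 and -1.73 for HFD-338. Of 13189 genes tested, 7701 were called between the groups at an adjusted p under 0.05 (58.4%), and 7643 were called without HFD-337 replicate 23. The Y-linked gene Ddx3y was at 124, 127 and 147 CPM in HFD-337 and 117, 143 and 135 CPM in HFD-338.

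The 2 groups differed across most of the liver transcriptome. In HFD-337, 3794 genes were higher (28.8%) and 3907 were lower (29.6%), by edgeR's quasi-likelihood test with Benjamini-Hochberg adjustment over all genes tested. Differences of at least 2-fold were more often falls: 1125 genes rose (8.53%) and 1986 fell (15.1%) by that much. The split depends on the scaling. On recomputed TPM, 2194 of 13635 genes tested were higher and 5314 lower, and the median over all genes moved to -0.23 on the log2 scale. List counts below stand beside these all-gene counts on recomputed TPM, and beside 28.8% higher and 29.6% lower by edgeR. The level range was wide on both sides, with Apoa2 and Apob among the most abundant genes called (plot of fold change by level). For 8195 genes (62.1%), the 3 HFD-337 libraries lay entirely above or below the 3 HFD-338 libraries. Apart from a fixed set and a few exceptions, genes named below were picked from called genes without overlap. For those picked, lack of overlap was fixed by that rule for naming.

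**Figure D1:**
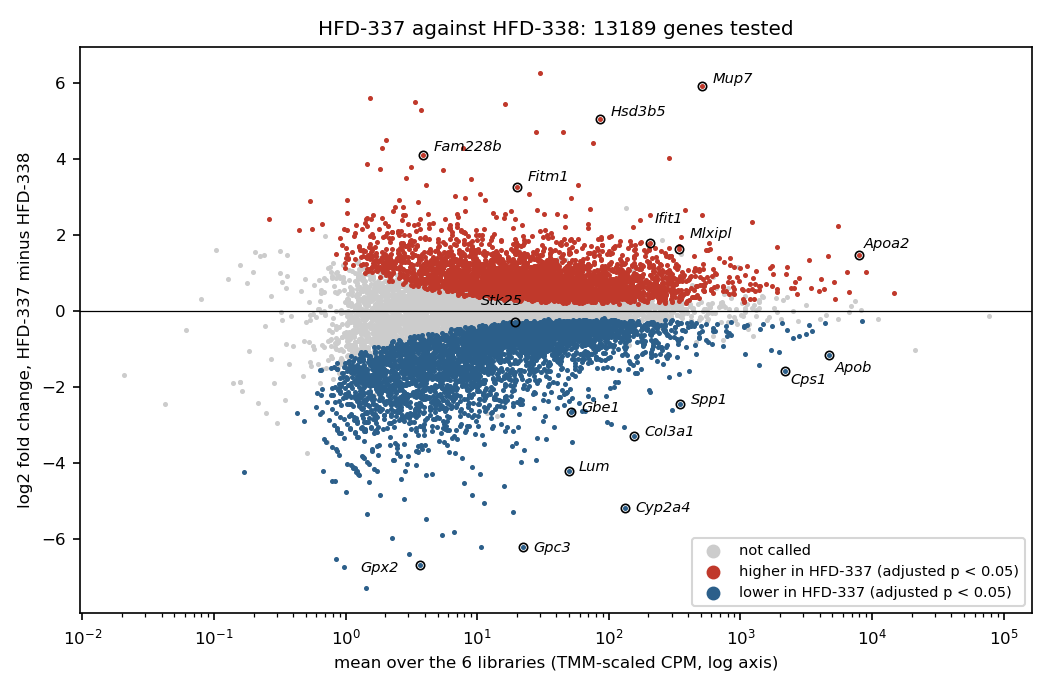
Log2 fold change of HFD-337 over HFD-338 (vertical axis) against the mean TMM-scaled CPM over the 6 libraries (horizontal log axis) for the 13189 genes tested. Red points are the 3794 genes called higher in HFD-337, blue points the 3907 called lower, and circles mark genes named in the text and Mup7, with Stk25 close to the zero line.

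Stk25 itself was slightly lower in HFD-337. It encodes a serine/threonine kinase and is the target that the series title names (chromosome 1, 93548473 to 93563449 in build mm39). Of its exon length, 23.1% overlaps Farp2, so reads from that stretch count for both genes. Its level was 19.1, 18.8 and 14.6 CPM in HFD-337, against 22.004, 21.9 and 20.5 CPM in HFD-338 and 48.6, 43.7 and 47.3 CPM in HFD-NS. The HFD-337 libraries all lay below the HFD-338 libraries (log2 fold change -0.29 with an SE of 0.119, adjusted p = 0.045), at 37.6% of the HFD-NS mean in HFD-337 and 46.2% in HFD-338. This call is close to the threshold and was lost under 6 of the 12 alternatives tried, among them those without HFD-337 replicate 27 (adjusted p = 0.161), without HFD-338 replicate 17 (0.102) and without HFD-338 replicate 18 (0.0776). Farp2, a guanine nucleotide exchange factor, had 14.4, 14.8 and 12.8 CPM in HFD-337 and 15.5, 17.8 and 18.3 CPM in HFD-338 (log2 fold change -0.29, adjusted p = 0.0479), a call that 9 alternatives lost.

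The paralog Stk24 also fell (chromosome 14, 121523753 to 121616642). It was at 11.2, 15.1 and 15.2 CPM in HFD-337 against 21.1, 22.5 and 19.6 CPM in HFD-338 (log2 fold change -0.60 with an SE of 0.14, adjusted p = 0.00137), without overlap. Its HFD-NS libraries held 21.95, 22.5 and 20.6 CPM, so its level against HFD-NS changed by -0.63 (adjusted p = 0.00103) in HFD-337 and by -0.04 (adjusted p = 0.846) in HFD-338. These comparisons share the HFD-NS libraries. Stk26 did not pass the filter on low counts and had 0.394, 0.231 and 0.203 CPM in HFD-337 and 0.798, 1.73 and 2.62 CPM in HFD-338. Of 13 tested members of the list of STK25, its paralogs and STRIPAK subunits, 2 were higher and 6 lower, with a median of -0.25. Pdcd10, the adaptor that binds these kinases, fell to 15.9, 18.4 and 18.1 CPM in HFD-337, against 29.2, 28.8 and 33.9 CPM in HFD-338 (log2 fold change -0.80, adjusted p = 6.53e-06). Slmap, which anchors the complex to membranes (log2 fold change -0.58, adjusted p = 0.000112), and the scaffold Strn (log2 fold change -0.50, adjusted p = 0.0054) also fell. Another scaffold, Strn4, rose (log2 fold change 0.53, adjusted p = 0.00133), a call lost on recomputed TPM. Each of these held 3 libraries a side that did not overlap, which the rule for naming required. On recomputed TPM the same list gave 0 higher and 10 lower.

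Genes of the bile duct epithelium and of the ductular reaction were mostly lower in HFD-337. Of 19 tested members, 16 were lower in HFD-337 and 2 higher, with a median of -2.44, and without HFD-337 replicate 23 the counts were 19 lower and 1 higher of 22 tested. The summed level of the list was 483, 291 and 269 CPM in HFD-337, against 1029, 930.2 and 1107 CPM in HFD-338 and 271, 282 and 247 CPM in HFD-NS. HFD-338 therefore stood above both other groups in every library, and HFD-337 replicate 23 was the highest of its group. Most of the sum in each HFD-338 library came from Spp1 alone, for which HFD-337 replicate 23 was also the highest of its group. Spp1, whose levels are given below, is counted in the list of monocyte-derived macrophage markers as well. The other 6 of the list's 25 genes did not pass the filter on low counts.

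Epcam, an adhesion molecule of bile duct cells and liver progenitors (chromosome 17, 87943407 to 87958555), was at 3.74, 1.27 and 1.42 CPM in HFD-337 against 20.1, 19.05 and 19.8 CPM in HFD-338 (log2 fold change -3.26 with an SE of 0.293, adjusted p = 7.29e-08). Against HFD-NS, at 1.28, 0.869 and 0.527 CPM, it differed by 1.18 (adjusted p = 0.0254) in HFD-337 and by 4.44 (adjusted p = 1.77e-08) in HFD-338. The groups were far apart in every library, with HFD-337 replicate 23 between the other HFD-337 libraries and HFD-338. Cd24a, a surface glycoprotein of progenitor and duct cells, had 6.50, 2.997 and 2.03 CPM in HFD-337 and 35.2, 33.2 and 32.3 CPM in HFD-338 (log2 fold change -3.16, adjusted p = 4.23e-08). The keratins of duct epithelium followed the same direction. Krt19 was at 1.38, 1.15 and 0.203 CPM in HFD-337 and 5.47, 3.22 and 5.76 CPM in HFD-338 (log2 fold change -2.32, adjusted p = 0.000273), and Krt23 fell by 3.28 on the log2 scale. Krt7 had only 2 counts over the HFD-337 libraries, and its ratio of HFD-338 over HFD-337 was 26.7, 95% counting interval 7.12 to 225. Sox9, the transcription factor of duct cells, was at 28.4, 12.7 and 15.6 CPM in HFD-337 against 46.9, 35.3 and 40.05 CPM in HFD-338 (log2 fold change -1.14, adjusted p = 0.000486). Spp1 (osteopontin), made by duct cells and by macrophages, had 205, 46.2 and 75.5 CPM in HFD-337 and 577, 519 and 663 CPM in HFD-338 (log2 fold change -2.44, adjusted p = 0.000669). Leaving out HFD-337 replicate 23 gave fold changes of -3.86 for Epcam and -3.27 for Spp1. Onecut1, a hepatocyte and duct transcription factor, was among the 2 that rose, at 8.86, 11.8 and 26.99 CPM in HFD-337 and 2.62, 4.08 and 3.93 CPM in HFD-338 (log2 fold change 2.14, adjusted p = 0.0316). That call was lost without any 1 of the HFD-338 libraries and without HFD-337 replicate 27 (1.55, adjusted p = 0.125).

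Fetal liver genes were grouped with secreted epithelial genes that reappear in injured liver. Of 13 tested, 9 were lower in HFD-337 and 0 higher, with a median of -2.41. The 9 were Afp, H19, Gpc3, Spink1, Ly6d, Cd63, Tspan8, Scd2 and Gpx2, of which Ly6d lost its call in the fit of the 6 libraries alone (adjusted p = 0.119) and without HFD-337 replicate 26 (adjusted p = 0.0561). Their list summed to 363, 125 and 161 CPM in HFD-337, against 571, 782 and 322 CPM in HFD-338 and 103, 195 and 94.5 CPM in HFD-NS, so HFD-337 replicate 23 lay above HFD-338 replicate 19. Afp, the fetal serum protein alpha-fetoprotein, was at 3.15, 3.34 and 3.04 CPM in HFD-337 against 25.7, 33.4 and 8.38 CPM in HFD-338 and 1.52, 1.49 and 2.11 CPM in HFD-NS (log2 fold change -2.81, adjusted p = 0.000184). Replicate 19 was the lowest of HFD-338 and still above every HFD-337 library. Gpc3, a cell-surface proteoglycan of fetal liver, had 0.394, 0.576 and 0.812 CPM in HFD-337 and 41.7, 67.5 and 23.4 CPM in HFD-338 (log2 fold change -6.19 with an SE of 0.501, adjusted p = 2.56e-07). The trypsin inhibitor Spink1 was at 1.77, 0.346 and 1.01 CPM in HFD-337 and 36.1, 45.1 and 28.1 CPM in HFD-338 (log2 fold change -5.27, adjusted p = 3.18e-08). Tspan8, a membrane tetraspanin, differed by -4.59 (adjusted p = 5.43e-08). Without HFD-337 replicate 23 the values were -5.89 for Spink1 and -5.49 for Tspan8, and without HFD-337 replicate 26 Spink1 was at -4.68. For Gpx2, an epithelial glutathione peroxidase, 1 count was found over HFD-337 against 180 over HFD-338, a ratio of HFD-338 over HFD-337 of 137, 95% counting interval 24.3 to 5452. Tff3, a secreted mucosal peptide, was not called, with 7.68, 3.69 and 8.32 CPM in HFD-337 and 4.56, 4.21 and 2.62 CPM in HFD-338 (log2 fold change 0.74, adjusted p = 0.0617), and it was called without HFD-337 replicate 26 (1.07, adjusted p = 0.00877).

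**Figure D2:**
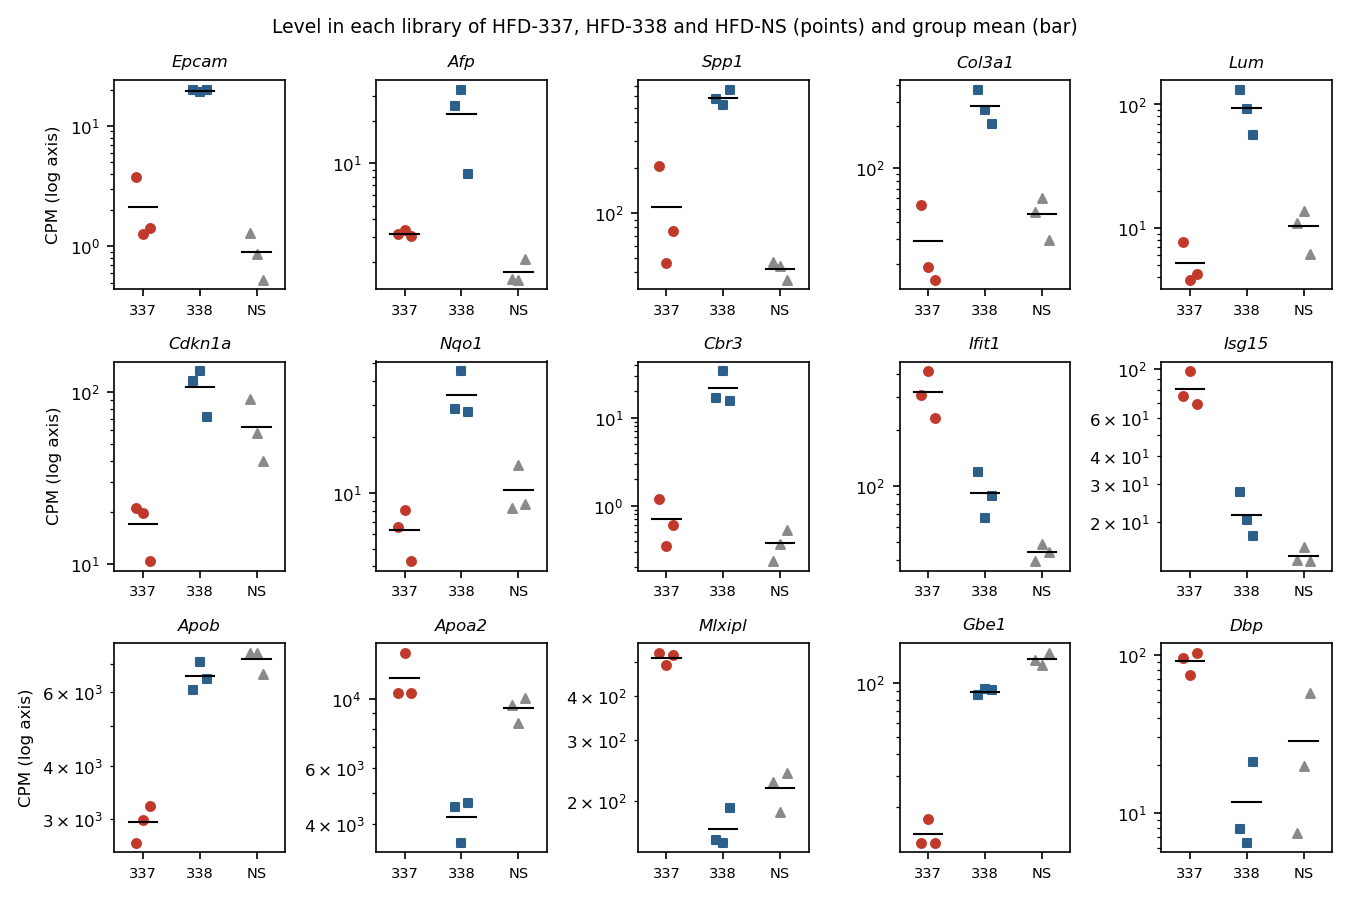
TMM-scaled CPM (vertical log axes) of 15 genes in each library of HFD-337 (red circles), HFD-338 (blue squares) and HFD-NS (grey triangles), with bars at the group means. Epcam, Spp1, Col3a1 and Cbr3 are higher in all 3 HFD-338 libraries than in any HFD-337 library, whereas Ifit1, Isg15, Apoa2, Mlxipl and Dbp are higher in all 3 HFD-337 libraries.

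Extracellular matrix genes were lower in HFD-337 almost throughout. Of 42 tested, 36 were lower and 2 higher, with a median of -2.27. The list summed to 1728, 1511 and 1449 CPM in HFD-337, against 3918, 3284 and 2730.0 CPM in HFD-338 and 2133, 2509.7 and 1998 CPM in HFD-NS. In these bulk samples, fewer cells of a type and less RNA per cell cannot be told apart, which holds for this list and for the cell markers that follow. The fibrillar collagen gene Col3a1 (chromosome 1, 45350698 to 45388866) was at 53.8, 18.8 and 15.2 CPM in HFD-337 against 371, 262 and 209 CPM in HFD-338 (log2 fold change -3.29 with an SE of 0.441, adjusted p = 9.81e-05). HFD-NS held 47.6, 60.5 and 29.7 CPM, from which Col3a1 differed by -0.67 (adjusted p = 0.232) in HFD-337 and by 2.61 (adjusted p = 0.000655) in HFD-338. Col1a1, the other main fibrillar collagen of scars, had 37.2, 10.03 and 7.92 CPM in HFD-337 and 114, 77.7 and 68.3 CPM in HFD-338 (log2 fold change -2.28, adjusted p = 0.00261). Groups did not overlap for either collagen, which the rule for naming required of Col3a1, and replicate 23 was the highest HFD-337 library for both. Without it, the fold change was -4.02 for Col3a1 and -3.24 for Col1a1.

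Lum (lumican), which organises collagen fibrils, was at 7.68, 3.80 and 4.26 CPM in HFD-337 against 132, 91.7 and 56.9 CPM in HFD-338 (log2 fold change -4.20 with an SE of 0.377, adjusted p = 2.14e-06). Lox, the enzyme that cross-links collagen, was at 0.788, 0 and 0.203 CPM in HFD-337 and 5.93, 6.31 and 3.66 CPM in HFD-338 (log2 fold change -4.19, adjusted p = 1.18e-05). Thbs2, a matricellular glycoprotein, differed by -3.49 (adjusted p = 8.06e-08). Without HFD-337 replicate 23, Lox was at -5.84 and Thbs2 at -4.09, and without HFD-337 replicate 26 Lox was at -3.36. The fitted value of Lox without replicate 23 rests on 1 count in HFD-337. Mmp14, a membrane-bound protease that degrades matrix, was 1 of the 2 members that rose, at 144, 115 and 111 CPM in HFD-337 and 82.9, 80.9 and 60.9 CPM in HFD-338 (log2 fold change 0.72, adjusted p = 0.000214), a call lost on recomputed TPM.

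Among markers of stellate cells and myofibroblasts, 12 of 19 were lower and 2 higher, with a median of -1.34. Their summed level was 339.6, 247 and 232 CPM in HFD-337, against 539, 459.6 and 331 CPM in HFD-338 and 369, 383 and 363 CPM in HFD-NS, so HFD-337 replicate 23 lay above HFD-338 replicate 19. Pdgfra, a receptor for platelet-derived growth factor, fell to 6.30, 4.38 and 6.70 CPM in HFD-337 against 37.1, 35.5 and 22.6 CPM in HFD-338 (log2 fold change -2.50, adjusted p = 2.96e-08). Hgf, the hepatocyte growth factor that stellate cells secrete, was at 1.38, 1.84 and 0.812 CPM in HFD-337 and 15.8, 10.5 and 5.24 CPM in HFD-338 (log2 fold change -2.88, adjusted p = 0.000316). Lrat, the enzyme of vitamin A storage, differed by -1.94 (adjusted p = 0.000188). Angptl6, a secreted angiopoietin-like protein, rose to 91.8, 81.7 and 63.7 CPM in HFD-337 against 24.97, 20.5 and 19.8 CPM in HFD-338 (log2 fold change 1.86, adjusted p = 1.52e-08), and 16.9% of its exon length overlaps Shfl.

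Sinusoidal endothelial markers were also lower: 19 of 27 fell and 1 rose, with a median of -1.08. They summed to 477, 393 and 335 CPM in HFD-337, against 851, 745 and 621 CPM in HFD-338 and 1108, 1189.6 and 959 CPM in HFD-NS, so that both groups lay below HFD-NS. Lyve1, the hyaluronan receptor of sinusoidal endothelium, was at 4.53, 3.80 and 2.84 CPM in HFD-337, 9.69, 8.41 and 5.63 CPM in HFD-338 and 23.4, 23.2 and 18.4 CPM in HFD-NS (log2 fold change -1.08, adjusted p = 0.0011 between HFD-337 and HFD-338). Tek, the angiopoietin receptor, had 5.71, 3.92 and 6.09 CPM in HFD-337 and 21.9, 26.1 and 12.2 CPM in HFD-338 (log2 fold change -1.98, adjusted p = 1.80e-05), and Pecam1, a junction protein of all endothelium, differed by -1.68 (adjusted p = 5.11e-05). No library overlapped between HFD-337 and HFD-338 for these 3 genes, which the rule for naming required of Tek and Pecam1.

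Macrophage markers fell too, with more spread between libraries. For resident Kupffer cells, 14 of 24 tested markers were lower and 1 higher, with a median of -1.23. That count dropped to 8 lower without HFD-338 replicate 18 and likewise to 8 without HFD-337 replicate 26. The summed levels overlapped, at 777, 540.5 and 1060.4 CPM in HFD-337 against 1258, 1556 and 896 CPM in HFD-338. Clec4f, the lectin that marks Kupffer cells in mice, was at 25.01, 11.4 and 17.05 CPM in HFD-337 and 40.7, 93.8 and 19.5 CPM in HFD-338 (log2 fold change -1.56, adjusted p = 0.0276). That call was lost under 4 alternatives, among them the removal of HFD-338 replicate 18 (-0.81, adjusted p = 0.127). Adgre1 (F4/80) had 8.07, 3.69 and 6.49 CPM in HFD-337 and 29.4, 45.3 and 18.98 CPM in HFD-338 (log2 fold change -2.43, adjusted p = 2.53e-05), and lysozyme Lyz2 had 38.6, 11.5 and 22.5 CPM in HFD-337 and 169, 267 and 115 CPM in HFD-338 (log2 fold change -2.97, adjusted p = 0.000286). Both stayed apart between the groups in every library, which the rule for naming required. Nr1h3, the liver X receptor alpha, which hepatocytes also express, rose to 96.5, 113 and 122 CPM in HFD-337 against 55.1, 58.4 and 50.7 CPM in HFD-338 (log2 fold change 1.02, adjusted p = 5.21e-07).

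Macrophages that come from monocytes or take up lipid have their own markers, which separated more cleanly. Of 25 tested, 20 were lower and 0 higher, with a median of -1.42, and their sum was 2104, 2088 and 2025 CPM in HFD-337, against 3503, 3565 and 3378 CPM in HFD-338 and 2361, 2789 and 2366 CPM in HFD-NS. Cd9, a tetraspanin of lipid-associated macrophages, was at 12.4, 8.76 and 9.34 CPM in HFD-337 against 45.6, 48.9 and 36.6 CPM in HFD-338 (log2 fold change -2.12, adjusted p = 1.49e-08). Its mean was 70.2% of the HFD-NS mean in HFD-337 and 302% in HFD-338. Gpnmb, a glycoprotein of lipid-laden macrophages, differed by -1.65 (adjusted p = 0.000112), and the integrin Itgam by -2.57 (adjusted p = 0.000261). Lpl (lipoprotein lipase), which releases fatty acids from circulating lipoproteins, had 139, 49.4 and 44.9 CPM in HFD-337 and 326, 327 and 318 CPM in HFD-338 (log2 fold change -2.07, adjusted p = 0.000585). HFD-337 replicate 23 was the highest of its group for Lpl, and every HFD-337 library was below HFD-338. Without that library the fold change of Lpl was -2.77.

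Of 37 cytokines, chemokines and Toll-like receptors tested, 19 were lower and 2 higher, with a median of -1.47. Their sum overlapped, at 767, 556 and 593 CPM in HFD-337 against 882, 863 and 710 CPM in HFD-338. Tlr13, which senses bacterial ribosomal RNA in mice, was at 1.97, 0.807 and 1.22 CPM in HFD-337 against 9.01, 14.3 and 7.46 CPM in HFD-338 (log2 fold change -3.01, adjusted p = 5.90e-06). Tlr8 (log2 fold change -2.66, adjusted p = 1.05e-05) and the single-stranded RNA receptor Tlr7 (log2 fold change -2.15, adjusted p = 2.19e-06) fell as well, and so did Tlr4, the receptor for bacterial lipopolysaccharide (log2 fold change -2.57, adjusted p = 1.73e-06). These receptors were below the HFD-NS mean in HFD-337 and above it in HFD-338. Tlr13 was at 42.9% and 331% of that mean, Tlr8 at 28.2% and 179%, Tlr7 at 67.6% and 301%, and Tlr4 at 33.4% and 186%. Nfkbia, the inhibitor of NF-kappa-B, rose (log2 fold change 0.58, adjusted p = 0.000625), a call lost on recomputed TPM. Tlr3, the receptor for double-stranded RNA, was not called (-0.21, adjusted p = 0.165), though it was on recomputed TPM (-0.43, adjusted p = 0.0113).

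Other blood cell markers gave few calls. Of 5 tested neutrophil markers, 0 were called by edgeR, 2 (S100a8 and Il1b) had an unadjusted p under 0.05, and DESeq2 called 2 and limma-voom 1, all lower. S100a8, an alarmin of neutrophils, was at 6.69, 1.38 and 3.65 CPM in HFD-337 and 3.88, 66.7 and 2.62 CPM in HFD-338 (log2 fold change -2.75, adjusted p = 0.0716). Its mean in HFD-338 rested on replicate 18, and without that library the fold change was 0.16 (adjusted p = 0.865). It was -3.40 without HFD-337 replicate 23. Among T, NK and B cell markers, 3 of 9 were lower and 0 higher, a share near the 29.6% lower over all genes. The count was 1 lower with DESeq2, without HFD-337 replicate 26 and without HFD-338 replicate 17 or 18. Ptprc (CD45), the antigen of all white blood cells, was at 19.9, 8.41 and 11.8 CPM in HFD-337 against 39.1, 66.8 and 31.1 CPM in HFD-338 (log2 fold change -1.82, adjusted p = 0.00119). Of 7 red blood cell markers, 1 was higher (Alas2, log2 fold change 0.64, adjusted p = 0.00308), a call lost on recomputed TPM, and 3 were higher without HFD-337 replicate 27. Their list summed to 865, 380.5 and 213 CPM in HFD-337 and 387, 248 and 356 CPM in HFD-338, highest in HFD-337 replicate 23. Hepatocyte markers were split, with 6 of 15 higher, 2 lower and a median of 0.03, and Alb (albumin) was not called (log2 fold change -0.12, adjusted p = 0.521). On recomputed TPM 5 were higher and 8 lower, and without HFD-337 replicate 26 4 were lower. Alb was called lower on recomputed TPM (adjusted p = 0.0479) and without HFD-337 replicate 26 (-0.39, adjusted p = 0.0165). Their sum ranged from 106358 to 156593 CPM in HFD-337 and from 125632 to 133223 CPM in HFD-338.

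**Figure D3:**
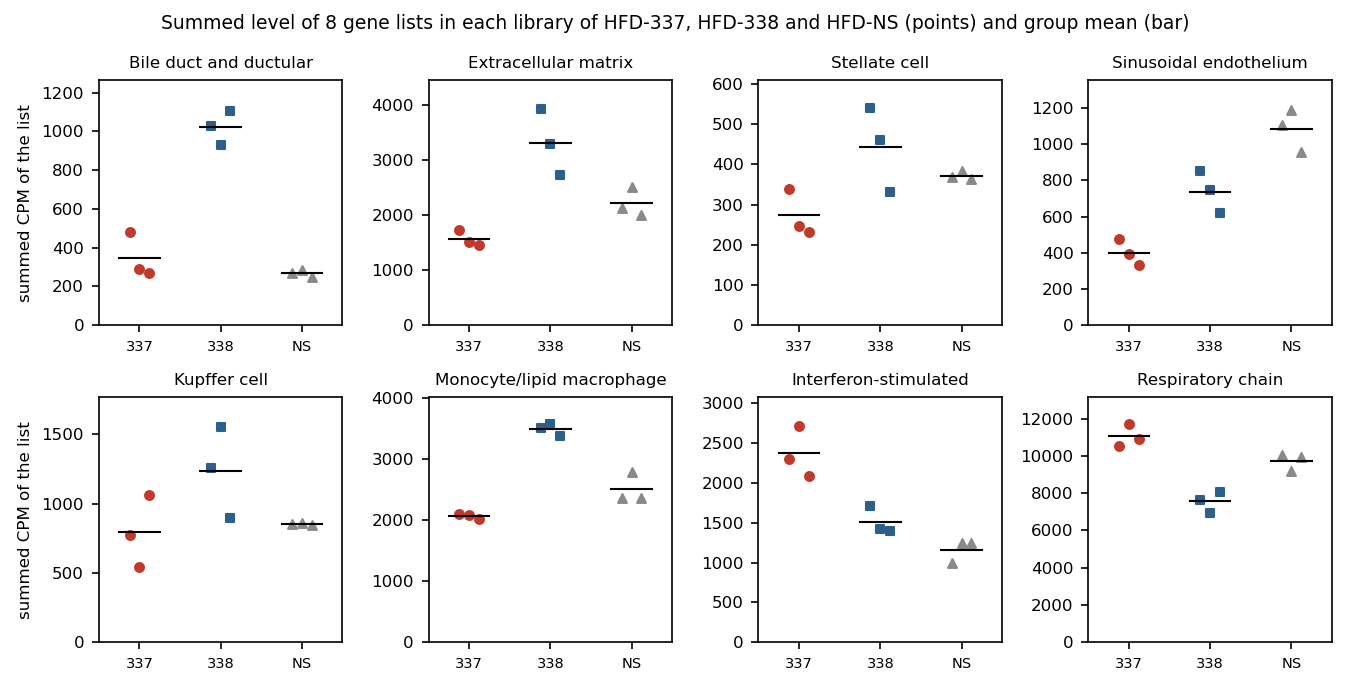
Summed TMM-scaled CPM (vertical axes from 0) of 8 gene lists in each library of HFD-337 (red circles), HFD-338 (blue squares) and HFD-NS (grey triangles), with bars at the group means. The ductular, matrix and monocyte-derived macrophage sums are higher in every HFD-338 library than in any HFD-337 library, the interferon-stimulated and respiratory chain sums are higher in every HFD-337 library, and the stellate and Kupffer sums overlap.

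Genes of the cell cycle and of DNA replication were lower in HFD-337, with 23 of 35 tested members lower, 3 higher and a median of -1.24. Without HFD-337 replicate 23 the counts were 29 lower and 2 higher, and without HFD-338 replicate 19 1 was higher. Mki67, the proliferation antigen Ki-67, was at 14.6, 2.88 and 2.44 CPM in HFD-337 against 26.5, 37.4 and 24.998 CPM in HFD-338 and 3.74, 3.35 and 3.90 CPM in HFD-NS (log2 fold change -2.23 with an SE of 0.489, adjusted p = 0.002). HFD-337 replicate 23 stood several-fold above the other HFD-337 libraries for Mki67 and below all of HFD-338. Top2a, the topoisomerase of dividing cells, had 3.74, 1.04 and 1.22 CPM in HFD-337 and 16.4, 20.2 and 9.69 CPM in HFD-338 (log2 fold change -3.03, adjusted p = 2.24e-06), and Cdk1, the mitotic kinase, had 3.74, 0.692 and 0.609 CPM in HFD-337 and 11.6, 10.4 and 7.07 CPM in HFD-338 (log2 fold change -2.63, adjusted p = 0.000116). Leaving that library out gave fold changes of -3.43 for Mki67, -3.77 for Top2a and -3.84 for Cdk1. With all libraries, Top2a stood at 96.3% of the HFD-NS mean in HFD-337 and 743% in HFD-338, and Cdk1 at 138% and 799%. Mcm7, a subunit of the replicative helicase, rose by 0.42 (adjusted p = 0.0235), a call that 4 alternatives lost.

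Targets of p53 were also mostly lower, with 17 of 29 lower, 4 higher and a median of -1.07. Without HFD-337 replicate 26, or without HFD-338 replicate 17 or 19, 2 were higher. Cdkn1a (p21), the cell cycle inhibitor, was at 21.3, 19.9 and 10.4 CPM in HFD-337 against 116, 133 and 71.5 CPM in HFD-338 and 91.7, 57.9 and 39.7 CPM in HFD-NS (log2 fold change -2.62 with an SE of 0.374, adjusted p = 0.000136). Every HFD-337 library was below every library of the other groups shown. The death receptor Tnfrsf10b differed by -2.42 (adjusted p = 0.000361) and Psrc1, a spindle protein, by -2.83 (adjusted p = 1.52e-05). Mdm2, the ubiquitin ligase that degrades p53, was not called, with 78.2, 61.7 and 65.1 CPM in HFD-337 and 82.8, 88.9 and 66.6 CPM in HFD-338 (log2 fold change -0.22, adjusted p = 0.13), although it was called lower on recomputed TPM, without HFD-337 replicate 23 and without HFD-338 replicate 19. Gdf15, a stress hormone, was higher at 6.10, 18.8 and 8.32 CPM in HFD-337 and 5.81, 4.82 and 4.71 CPM in HFD-338 (log2 fold change 1.17, adjusted p = 0.0307). That call was lost under 6 alternatives, among them the removal of HFD-337 replicate 26 (0.49, adjusted p = 0.3).

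Antioxidant genes under control of the transcription factor NRF2 gave 17 lower and 3 higher of 32 tested, with a median of -0.51. The list's sum overlapped, at 11353, 11748 and 11395 CPM in HFD-337 against 12324, 13101 and 11357 CPM in HFD-338. NRF2 binds antioxidant response elements in the promoters of its targets. Nqo1, a quinone reductase (chromosome 8, 108114857 to 108129837), was at 6.50, 8.07 and 4.26 CPM in HFD-337 against 28.5, 45.5 and 27.4 CPM in HFD-338 and 8.29, 14.2 and 8.75 CPM in HFD-NS (log2 fold change -2.38 with an SE of 0.245, adjusted p = 6.18e-07). Against HFD-NS it differed by -0.67 (adjusted p = 0.0457) in HFD-337 and by 1.71 (adjusted p = 1.85e-05) in HFD-338. The carbonyl reductase Cbr3 had 1.18, 0.346 and 0.609 CPM in HFD-337 and 16.6, 33.9 and 15.4 CPM in HFD-338 (log2 fold change -5.04, adjusted p = 2.69e-08), and Slc7a11, the cystine importer for glutathione synthesis, had 0.197, 0.115 and 0.406 CPM in HFD-337 and 15.05, 20.5 and 3.80 CPM in HFD-338 (log2 fold change -5.82, adjusted p = 2.38e-05). Both were under 2 CPM in every HFD-337 and HFD-NS library. Abcc4, an efflux pump for bile acids and conjugates, was at 1.58, 0.692 and 0.812 CPM in HFD-337 and 13.2, 17.8 and 12.04 CPM in HFD-338 (log2 fold change -3.86, adjusted p = 2.43e-08). The superoxide dismutase Sod1 rose to 1326, 1437 and 1325 CPM in HFD-337 against 634, 566 and 648 CPM in HFD-338 (log2 fold change 1.15, adjusted p = 6.00e-08), and the mitochondrial Sod2 rose by 0.45 (adjusted p = 0.000235).

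Promoters of the list were searched in RefSeq's GRCm38.p6 sequences, from 250 bases before to 50 after each start, for the core TGACNNNGC on both strands. Of 28 members matched by symbol, 10 held it: 7 of 15 lower members, 1 of 3 higher members and 2 of 10 not called. The motif was in 13.99% of all 27025 genes in that table. The promoters of the efflux pumps Abcc4 and Abcc2 are shown because both genes fell (Abcc2: log2 fold change -0.55, adjusted p = 0.00232) and both hold the core. Capitals mark the match, sequences run 5′ to 3′ along the gene, and a match describes letters only.
Abcc4 (chr14:118706170-118706469, minus strand): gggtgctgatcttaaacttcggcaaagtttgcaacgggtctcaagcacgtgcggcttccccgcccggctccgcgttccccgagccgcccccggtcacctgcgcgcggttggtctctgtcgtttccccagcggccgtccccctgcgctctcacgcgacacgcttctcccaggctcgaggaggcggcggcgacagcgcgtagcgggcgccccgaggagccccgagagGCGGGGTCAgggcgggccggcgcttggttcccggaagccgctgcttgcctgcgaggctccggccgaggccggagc
Abcc2 (chr19:43782058-43782357, plus strand): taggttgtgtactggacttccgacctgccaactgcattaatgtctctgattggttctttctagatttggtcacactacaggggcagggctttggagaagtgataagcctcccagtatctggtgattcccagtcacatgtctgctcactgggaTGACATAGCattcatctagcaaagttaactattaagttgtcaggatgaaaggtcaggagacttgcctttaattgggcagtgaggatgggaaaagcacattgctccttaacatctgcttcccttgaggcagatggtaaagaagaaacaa

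Interferon-stimulated genes ran the other way. Of 39 tested, 19 were higher in HFD-337 and 5 lower, with a median of 0.55. On recomputed TPM 11 were higher and 8 lower, with a median of 0.21. Over all genes on recomputed TPM, 2194 of 13635 were higher and 5314 lower, with a median of -0.23. The sum of the interferon list was 2302, 2704 and 2088 CPM in HFD-337, against 1709.6, 1423 and 1393 CPM in HFD-338 and 995, 1241 and 1240.1 CPM in HFD-NS. Ifit1, which binds viral RNA that lacks a methylated cap (chromosome 19, 34618289 to 34627409), was at 307, 413 and 232 CPM in HFD-337 against 118, 66.5 and 87.95 CPM in HFD-338 and 39.1, 48.7 and 44.1 CPM in HFD-NS (log2 fold change 1.80 with an SE of 0.295, adjusted p = 0.000309). It was above HFD-NS in both groups, by 2.85 (adjusted p = 1.88e-05) in HFD-337 and by 1.05 (adjusted p = 0.0175) in HFD-338. Isg15, a ubiquitin-like modifier, had 75.4, 97.97 and 69.003 CPM in HFD-337 and 27.5, 20.4 and 17.3 CPM in HFD-338 (log2 fold change 1.90 with an SE of 0.239, adjusted p = 1.71e-05). Zbp1, a sensor of left-handed nucleic acid (log2 fold change 1.48, adjusted p = 0.000149), and Igtp, an immunity-related GTPase (log2 fold change 1.47, adjusted p = 4.74e-05), rose as well. None of these 4 genes overlapped between the groups, which the rule for naming required of all but Ifit1.

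The 5 members called lower went against that direction. The oligoadenylate synthetases Oas3, at 4.73, 2.54 and 1.22 CPM in HFD-337 against 12.3, 9.28 and 5.89 CPM in HFD-338 (log2 fold change -1.71, adjusted p = 0.000316), and Oasl2 (log2 fold change -0.95, adjusted p = 0.000423) fell, as did Ifit2 (log2 fold change -1.29, adjusted p = 7.61e-05), Ifi27l2a (log2 fold change -1.01, adjusted p = 0.000217) and the RNA sensor Ifih1. For Ifit2, HFD-337 held 10.6, 9.34 and 6.70 CPM and HFD-338 27.8, 18.8 and 19.1 CPM, next to 8.29, 11.4 and 10.6 CPM in HFD-NS. The chemokine Cxcl10 was at 11.8, 19.5 and 14.4 CPM in HFD-337 and 10.7, 9.15 and 7.85 CPM in HFD-338 (log2 fold change 0.74, adjusted p = 0.00396), a call that 2 alternatives lost.

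Interferon-stimulated response elements were searched as GAAANNGAAA on both strands in the same promoter table. Of 29 members matched, 18 held it: 9 of 15 higher members, 2 of 4 lower members and 7 of 10 not called. The motif was in 3.99% of all genes in the table. Ifit1 and Isg15, which rose, and Oas3, which fell, are shown because all hold it. Ifit1 has 2 matches on the strand opposite to the gene, and the 3 matches of Isg15 overlap each other and form the single capital run.
Ifit1 (chr19:34640639-34640938, plus strand): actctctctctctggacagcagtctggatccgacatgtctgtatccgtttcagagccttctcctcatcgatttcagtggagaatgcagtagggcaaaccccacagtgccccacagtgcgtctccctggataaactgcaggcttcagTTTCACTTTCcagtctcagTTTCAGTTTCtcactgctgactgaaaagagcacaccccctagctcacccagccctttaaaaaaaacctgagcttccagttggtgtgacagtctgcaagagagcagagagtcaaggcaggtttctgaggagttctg
Isg15 (chr4:156200769-156201068, minus strand): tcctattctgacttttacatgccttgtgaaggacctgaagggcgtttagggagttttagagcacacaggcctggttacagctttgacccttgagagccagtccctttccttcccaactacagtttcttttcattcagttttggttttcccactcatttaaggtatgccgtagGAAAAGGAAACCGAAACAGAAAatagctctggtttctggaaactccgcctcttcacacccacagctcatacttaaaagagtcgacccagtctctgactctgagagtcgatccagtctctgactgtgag
Oas3 (chr5:120777610-120777909, minus strand): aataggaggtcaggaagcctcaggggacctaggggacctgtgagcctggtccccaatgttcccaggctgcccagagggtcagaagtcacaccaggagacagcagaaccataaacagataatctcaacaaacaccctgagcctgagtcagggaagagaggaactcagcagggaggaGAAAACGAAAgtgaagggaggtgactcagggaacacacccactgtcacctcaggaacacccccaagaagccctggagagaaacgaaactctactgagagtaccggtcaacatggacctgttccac

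Genes of lipoprotein assembly separated by member. Of 26 tested apolipoproteins and assembly factors, 15 were higher in HFD-337 and 5 lower, with a median of 0.63, and on recomputed TPM 13 were higher and 8 lower. Without HFD-337 replicate 23, 3 were lower. Apoa2, a protein of high-density lipoprotein (chromosome 1, 171049133 to 171053948), was at 10461, 14031 and 10444 CPM in HFD-337 against 4516, 3472 and 4651 CPM in HFD-338 and 9550.3, 8362 and 10080.3 CPM in HFD-NS (log2 fold change 1.47 with an SE of 0.15, adjusted p = 2.94e-07). Apoa1, the main protein of the same particles, had 10448, 12636 and 13126 CPM in HFD-337 and 6212, 5549.7 and 5881 CPM in HFD-338 (log2 fold change 1.04, adjusted p = 1.69e-06). Apoc1 (log2 fold change 1.04, adjusted p = 6.39e-06) and Apoe, the ligand for remnant uptake (log2 fold change 0.48, adjusted p = 0.00166), rose too, the call of Apoe being lost on recomputed TPM (0.20, adjusted p = 0.119). Angptl8, which inhibits lipoprotein lipase, was at 60.6, 51.9 and 118 CPM in HFD-337 and 17.6, 15.3 and 16.4 CPM in HFD-338 (log2 fold change 2.21, adjusted p = 2.09e-05). In contrast, Apob, which forms the scaffold of very-low-density lipoprotein (chromosome 12, 8027677 to 8066839), fell to 2627, 2981 and 3211 CPM in HFD-337 against 6082, 7094 and 6473 CPM in HFD-338 and 7456, 7470.1 and 6651 CPM in HFD-NS (log2 fold change -1.16 with an SE of 0.119, adjusted p = 3.13e-07). Mttp, which loads lipid onto that protein, had 228, 263 and 290.2 CPM in HFD-337 and 327, 322 and 314 CPM in HFD-338 (log2 fold change -0.30, adjusted p = 0.0149), a call lost without HFD-337 replicate 23 (-0.21, adjusted p = 0.0838). Apob spans 39.2 kb and Mttp 53.6 kb, whereas the members named here that rose span at most 4.82 kb. The part of gene length in this split was not tested.

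**Figure D4:**
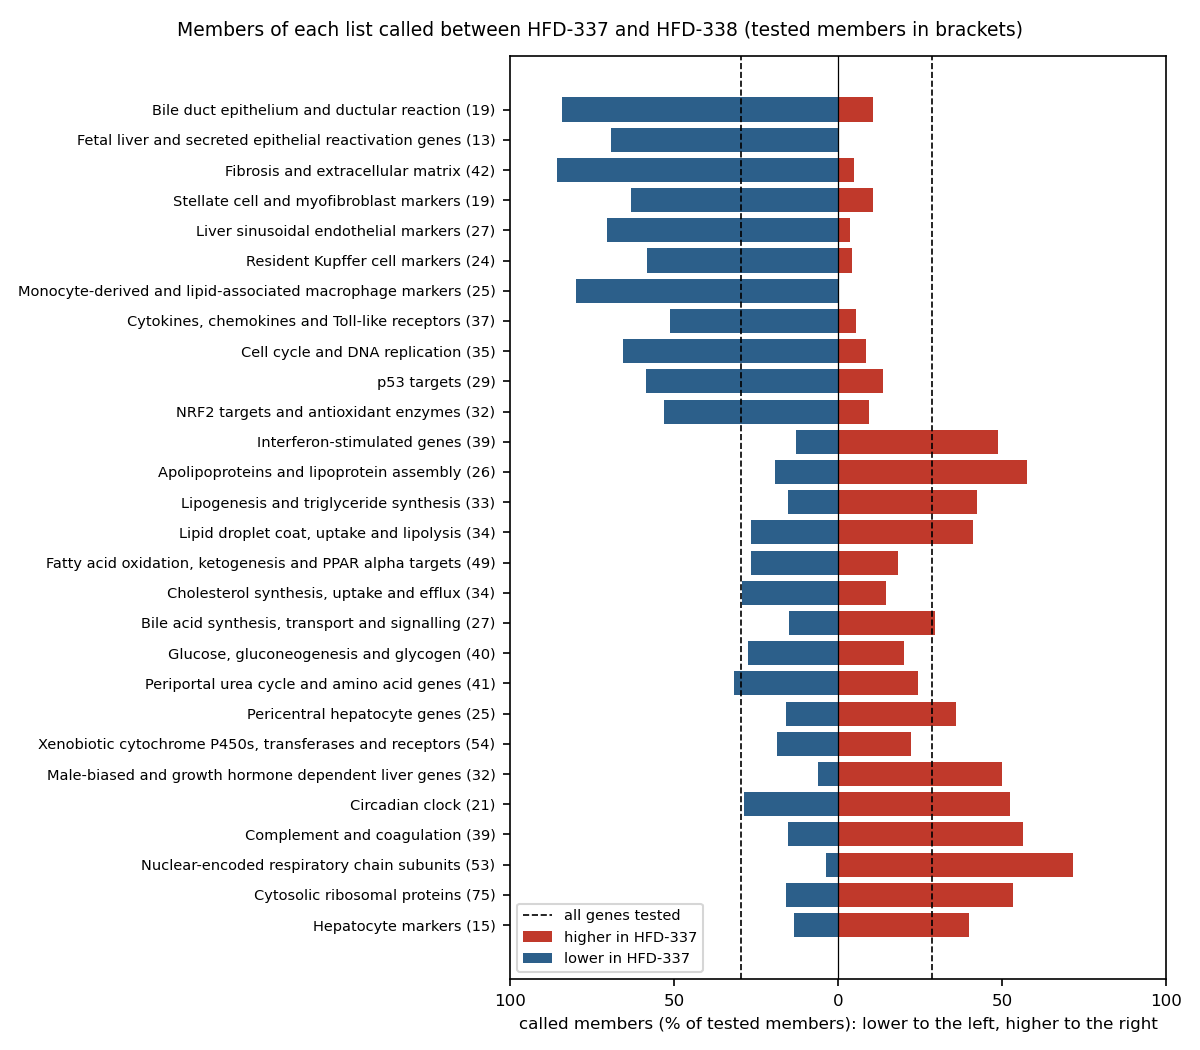
Share of tested members (horizontal axis, percent) called lower in HFD-337 (blue, to the left) and higher in HFD-337 (red, to the right) for 28 gene lists, with the number tested in brackets. Dashed lines mark the shares over all genes tested, 29.6% lower and 28.8% higher. The ductular, matrix, endothelial, macrophage, cell cycle and p53 lists are among those that pass the lower line. The respiratory chain, apolipoprotein, complement, ribosomal, clock, male-biased and interferon lists are among those that pass the higher one.

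Lipogenic genes gave 14 higher and 5 lower of 33 tested, with a median of 0.19, and 10 higher and 9 lower on recomputed TPM. By edgeR the share higher was above the 28.8% over all genes, and the share lower was under 29.6%. The sum of the list overlapped, at 8275, 7706 and 5273 CPM in HFD-337 against 5560, 4718 and 7099 CPM in HFD-338. Mlxipl (ChREBP), the transcription factor that couples glucose to lipid synthesis, was at 534, 492 and 524 CPM in HFD-337 against 155, 152 and 192 CPM in HFD-338 and 228, 187 and 241 CPM in HFD-NS (log2 fold change 1.63 with an SE of 0.133, adjusted p = 2.96e-08). Srebf1, the insulin-responsive regulator of the same pathway, had 33.5, 45.99 and 49.9 CPM in HFD-337 and 15.96, 23.3 and 23.4 CPM in HFD-338 (log2 fold change 1.05, adjusted p = 0.00624). Acacb, the acetyl-CoA carboxylase of the mitochondrial surface, was at 25.6, 21.7 and 16.8 CPM in HFD-337 and 8.55, 9.03 and 8.25 CPM in HFD-338 (log2 fold change 1.31, adjusted p = 7.05e-05), below HFD-NS at 51.3, 29.6 and 32.4 CPM. Fasn, the fatty acid synthase, was not called, with 69.1, 77.6 and 97.01 CPM in HFD-337 and 68.98, 68.3 and 76.6 CPM in HFD-338 (log2 fold change 0.19, adjusted p = 0.414). Me1 (malic enzyme), which supplies NADPH, fell (log2 fold change -1.17, adjusted p = 4.68e-05).

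For lipid droplets, fatty acid uptake and lipolysis, 14 of 34 were higher and 9 lower, with a median of 0.11, against 10 higher and 10 lower on recomputed TPM. By edgeR the share higher was above the 28.8% over all genes, and the share lower was under 29.6%. Fabp1, the fatty acid binding protein of hepatocytes, was at 6702, 6433 and 7080.5 CPM in HFD-337 against 2342, 2259.7 and 2813 CPM in HFD-338 and 7273, 5255 and 6573 CPM in HFD-NS (log2 fold change 1.45 with an SE of 0.13, adjusted p = 7.26e-08). Fitm1, which binds triglyceride during droplet formation, had 54.9, 30.8 and 23.3 CPM in HFD-337 and 4.90, 3.71 and 2.49 CPM in HFD-338 (log2 fold change 3.27, adjusted p = 2.35e-06). Plin2, the main droplet coat protein of hepatocytes, was lower, at 447, 432 and 291 CPM in HFD-337, 616, 630.5 and 483 CPM in HFD-338 and 793, 807 and 562 CPM in HFD-NS (log2 fold change -0.56, adjusted p = 0.00883). The lysosomal acid lipase Lipa (log2 fold change -1.20, adjusted p = 1.48e-07) and the fatty acid transporter Cd36 (log2 fold change -1.16, adjusted p = 0.00144) fell as well.

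Fatty acid oxidation did not move as a block. Of 49 tested members, 9 were higher and 13 lower with a median of 0.00, and on recomputed TPM 5 were higher and 25 lower. Both shares by edgeR lay under those over all genes tested, 28.8% higher and 29.6% lower. Ppara, the nuclear receptor that drives the pathway, was not called, with 197, 195 and 151 CPM in HFD-337, 217, 209 and 230.1 CPM in HFD-338 and 348, 432 and 420.3 CPM in HFD-NS (log2 fold change -0.27, adjusted p = 0.0535). It was called lower under 5 alternatives: RLE size factors, DESeq2, recomputed TPM, and without HFD-337 replicate 23 or 26. Ehhadh, the bifunctional enzyme of peroxisomal oxidation, fell to 127, 195 and 173 CPM in HFD-337 against 511, 540.1 and 501 CPM in HFD-338 (log2 fold change -1.65, adjusted p = 9.01e-08). Pdk4, the kinase that turns off pyruvate dehydrogenase, had 9.65, 7.03 and 3.86 CPM in HFD-337 and 45.3, 42.9 and 23.4 CPM in HFD-338 (log2 fold change -2.43, adjusted p = 0.000702). Etfb, an electron carrier of the same pathway, rose (log2 fold change 0.95, adjusted p = 2.63e-07), and Etfdh, the next carrier, fell (log2 fold change -1.13, adjusted p = 8.39e-07).

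Among 34 cholesterol genes, 5 were higher and 10 lower, with a median of -0.17, and 2 higher and 16 lower on recomputed TPM. The share lower by edgeR was near the 29.6% over all genes, and the share higher was under 28.8%. Without HFD-337 replicate 27, 3 were higher. Ebp, a sterol isomerisation enzyme, rose to 333, 357 and 349 CPM in HFD-337 against 153, 130.3 and 166 CPM in HFD-338 (log2 fold change 1.21, adjusted p = 3.55e-08). Of 27 bile acid genes, 8 were higher and 4 lower, with a median of 0.20, against 7 higher and 8 lower on recomputed TPM. For bile acid genes the share higher by edgeR was near the 28.8% over all genes, and the share lower was under 29.6%. Nr1h4 (FXR), the bile acid receptor, was at 253, 249 and 225 CPM in HFD-337 against 104, 105 and 110.3 CPM in HFD-338 and 186, 159.7 and 193 CPM in HFD-NS (log2 fold change 1.19 with an SE of 0.0989, adjusted p = 3.37e-08). Cyp7a1, the rate-limiting enzyme of bile acid synthesis, was not called, with 102, 133 and 102 CPM in HFD-337 and 76.96, 67.9 and 53.3 CPM in HFD-338 (log2 fold change 0.77, adjusted p = 0.196), although its libraries did not overlap and it was called in the fit of the 6 libraries alone (adjusted p = 0.00269). The phospholipid exporter Abcb4 fell (log2 fold change -0.88, adjusted p = 2.78e-06).

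Genes of glucose and glycogen metabolism gave 8 higher and 11 lower of 40 tested, with a median of -0.15, and 4 higher and 21 lower on recomputed TPM. By edgeR neither share exceeded that over all genes, 28.8% higher and 29.6% lower. The glucagon receptor Gcgr rose (log2 fold change 1.05, adjusted p = 3.49e-08). Gbe1, the glycogen branching enzyme (chromosome 16, 70110837 to 70366608), fell to 12.6, 17.1 and 12.6 CPM in HFD-337 against 85.4, 92.8 and 91.2 CPM in HFD-338 and 135, 127 and 149 CPM in HFD-NS (log2 fold change -2.65 with an SE of 0.132, adjusted p = 2.65e-10). It differed from HFD-NS by -3.26 (adjusted p = 1.13e-11) in HFD-337 and by -0.61 (adjusted p = 0.000366) in HFD-338, and the gene spans 256 kb.

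Zonal hepatocyte genes were mixed. Of 41 periportal genes of the urea cycle and amino acid breakdown, 10 were higher and 13 lower, with a median of 0.11, and on recomputed TPM 3 were higher and 19 lower. The edgeR shares were near those over all genes, 28.8% higher and 29.6% lower. Cps1, the entry enzyme of the urea cycle, was at 630.1, 1497 and 1202 CPM in HFD-337 against 3306, 2895 and 3635 CPM in HFD-338 (log2 fold change -1.56, adjusted p = 0.00011). Tdo2, which starts tryptophan breakdown, had 579, 872 and 806 CPM in HFD-337 and 1939.6, 1669.8 and 2374 CPM in HFD-338 (log2 fold change -1.41, adjusted p = 5.34e-07). Of 25 pericentral genes, 9 were higher and 4 lower, with a median of 0.21, against 7 higher and 6 lower on recomputed TPM. For pericentral genes the edgeR share higher was above 28.8%, and the share lower was under 29.6%. Glul, the glutamine synthetase of the cells around the central vein, was at 1338, 1329 and 922 CPM in HFD-337, 427, 367 and 569.9 CPM in HFD-338 and 1785, 1838 and 1615 CPM in HFD-NS (log2 fold change 1.40, adjusted p = 6.01e-07 between HFD-337 and HFD-338).

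Xenobiotic enzymes and receptors gave 12 higher and 10 lower of 54 tested, with a median of 0.06, and 7 higher and 19 lower on recomputed TPM. Both edgeR shares lay under the 28.8% higher and 29.6% lower over all genes tested. Cyp2a4, a steroid hydroxylase that is higher in female than male mouse liver, was at 6.50, 9.68 and 4.46 CPM in HFD-337 against 198, 386 and 197 CPM in HFD-338 and 3.97, 11.9 and 6.11 CPM in HFD-NS (log2 fold change -5.17 with an SE of 0.431, adjusted p = 2.33e-06). HFD-338 stood far above both other groups, although Cyp2a4 has near-identical copies and its counts are uncertain for that reason. Cyp3a11, the main drug-metabolising P450, had 1299, 1836 and 668 CPM in HFD-337 and 2275, 2089 and 3681 CPM in HFD-338 (log2 fold change -1.08, adjusted p = 0.0134). That call was lost in the fit of the 6 libraries alone (adjusted p = 0.0631) and without HFD-338 replicate 19 (-0.79, adjusted p = 0.0534). The sulfotransferase Sult1c2 rose to 20.7, 22.4 and 12.4 CPM in HFD-337 against 3.31, 4.45 and 4.71 CPM in HFD-338 (log2 fold change 2.17, adjusted p = 7.25e-07).

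Male-biased and growth hormone dependent genes were higher for 16 of 32 tested members and lower for 2, with a median of 1.29, and on recomputed TPM for 16 and 5. Leaving out 1 library gave 1 to 4 lower. The summed level of the list overlapped, at 23277, 22383 and 55371 CPM in HFD-337 against 38053, 23123 and 43756 CPM in HFD-338. Mup3, a major urinary protein, was at 5868, 7605 and 13990.3 CPM in HFD-337 against 1833, 897 and 3067 CPM in HFD-338 and 8252, 4387 and 8165 CPM in HFD-NS (log2 fold change 2.24, adjusted p = 0.00165). Mup genes are near-identical copies, so reads may be split between them. Hsd3b5, a steroid enzyme of male mouse liver, had 68.7, 42.3 and 390.5 CPM in HFD-337 and 8.44, 1.86 and 4.58 CPM in HFD-338 (log2 fold change 5.04, adjusted p = 0.001). HFD-337 replicate 27 was far above the other 2 libraries for Hsd3b5, which was at 3.43 without it and at 5.69 without HFD-338 replicate 17. Igfbp1, an insulin-repressed binding protein for growth factors, fell to 5.91, 13.02 and 6.29 CPM in HFD-337 against 88.2, 132 and 70.8 CPM in HFD-338 (log2 fold change -3.45 with an SE of 0.472, adjusted p = 0.000111). Of 25 female-biased genes, 1 was higher and 6 were lower, with a median of -0.13, against 4 higher and 5 lower with a median of 0.07 without HFD-337 replicate 27. With all libraries, both shares lay under those over all genes, 28.8% higher and 29.6% lower.

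Circadian clock genes were split, with 11 of 21 higher, 6 lower and a median of 0.55. The share lower was near the 29.6% over all genes, and the share higher was above 28.8%. On recomputed TPM 8 were higher and 6 lower. Leaving out 1 library gave 8 to 11 higher and 4 to 5 lower. Dbp, an output factor of the clock, was at 95.7, 74.1 and 104 CPM in HFD-337 against 7.87, 6.43 and 20.8 CPM in HFD-338 and 7.47, 19.7 and 57.7 CPM in HFD-NS (log2 fold change 2.97 with an SE of 0.628, adjusted p = 0.00216), and 32.1% of its exon length overlaps Sphk2. The repressors Per2, at 58.5, 56.6 and 81.2 CPM in HFD-337 and 18.9, 15.2 and 23.2 CPM in HFD-338 (log2 fold change 1.77, adjusted p = 4.71e-07), and Per3 (log2 fold change 2.55, adjusted p = 0.00174) rose. The activators Arntl, at 5.91, 10.1 and 3.45 CPM in HFD-337 and 24.2, 23.7 and 17.9 CPM in HFD-338 (log2 fold change -1.66, adjusted p = 0.00107), and Npas2 (log2 fold change -1.56, adjusted p = 0.00825) fell. No hour of sampling is in the labels, and its part in these differences was not tested. The 3 HFD-NS libraries were far apart for Dbp. Without HFD-338 replicate 19, the highest of its group, the fold change of Dbp was 3.65. Of 27 thyroid hormone genes, 8 were higher and 9 lower, with a median of 0.19, and 4 higher and 11 lower on recomputed TPM. By edgeR these shares were near the 28.8% higher and 29.6% lower over all genes. Without HFD-338 replicate 17 or replicate 18, 5 were higher. The receptor Thra rose (log2 fold change 1.38, adjusted p = 7.56e-07).

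Nuclear-encoded subunits of the respiratory chain had the highest share of rises among the lists plotted. Of 53 tested, 38 were higher in HFD-337 and 2 lower, with a median of 0.70, and on recomputed TPM 33 were higher and 10 lower. They summed to 10534, 11708 and 10902 CPM in HFD-337, against 7643, 6960.1 and 8079 CPM in HFD-338 and 10043, 9172 and 9943 CPM in HFD-NS. Uqcrq, a small subunit of complex III, was at 568, 524 and 489.9 CPM in HFD-337 against 167, 137 and 177 CPM in HFD-338 (log2 fold change 1.72 with an SE of 0.112, adjusted p = 2.82e-09). Ndufb4, an accessory subunit of complex I, had 155, 136 and 116 CPM in HFD-337 and 41.6, 32.8 and 47.9 CPM in HFD-338 (log2 fold change 1.74, adjusted p = 6.31e-07). The larger core subunit Ndufs1 (log2 fold change -0.33, adjusted p = 0.0157) and the ATP synthase subunit Atp5b (log2 fold change -0.33, adjusted p = 0.00429) were the 2 that fell. The call of Ndufs1 was lost without HFD-337 replicate 23 (adjusted p = 0.0747) and without HFD-338 replicate 19 (adjusted p = 0.0802).

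Cytosolic ribosomal proteins were higher for 40 of 75 tested members and lower for 12, with a median of 0.26. On recomputed TPM 20 were higher and 28 lower, with a median of -0.02. By edgeR, 28.8% of all genes were higher and 29.6% lower. The list's median span was 3.15 kb. Of all genes spanning under 10 kb, 46.3% were higher and 16.4% lower, with a median of 0.41. Rps26 was at 276, 264 and 290.2 CPM in HFD-337 against 127, 115 and 129.7 CPM in HFD-338 (log2 fold change 1.16, adjusted p = 4.23e-08), and Rps4x at 110.1, 140.3 and 149 CPM in HFD-337 against 301, 287 and 258 CPM in HFD-338 (log2 fold change -1.08, adjusted p = 2.35e-07). Neither overlapped between the groups, which the rule for naming required. Ribosomal protein genes have many processed copies, which can take part of their reads.

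The direction of the calls moved with gene length. Of 3544 genes spanning under 10 kb, 1640 were higher in HFD-337 and 582 lower, with a median of 0.41. Of 539 genes spanning 200 kb or more, 49 were higher and 257 lower, with a median of -0.55. In those long genes the median against HFD-NS was -0.57 in HFD-337 and -0.06 in HFD-338. Their share of all counts was 0.936% to 1.01% in HFD-337, against 1.24% to 1.28% in HFD-338 and 1.36% to 1.42% in HFD-NS, with no overlap between the groups. Summed exon length gave the same order, with a median of 0.53 for 946 genes under 1 kb of exon and of -0.24 for 4429 genes of 4 kb or more. The respiratory chain and ribosomal protein lists consist mostly of short genes, and Gbe1 and Abcc4 are long. The part of length in their differences was not tested.

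**Figure D5:**
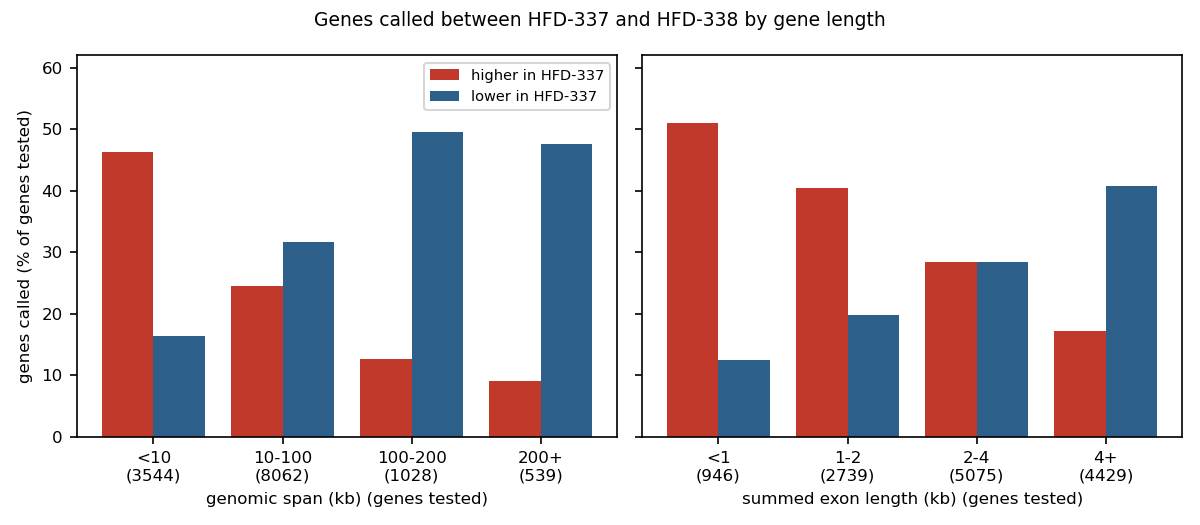
Share of genes tested (vertical axis, percent) called higher (red) and lower (blue) in HFD-337 against HFD-338, by genomic span and by summed exon length in kb (horizontal axes, bins). In the bin of shortest span 46.3% of genes were higher and 16.4% lower, and the order was opposite among genes of 200 kb or more.

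Complement and coagulation genes, which hepatocytes secrete, gave 22 higher and 6 lower of 39 tested, with a median of 0.49, and 16 higher and 12 lower on recomputed TPM. Vtn (vitronectin), which holds the terminal complement complex in check, was at 2718, 3095 and 3561 CPM in HFD-337 against 1524, 1325 and 1347 CPM in HFD-338 (log2 fold change 1.16 with an SE of 0.109, adjusted p = 1.16e-07), and C8a, a part of that complex, rose too (log2 fold change 1.30, adjusted p = 9.51e-05). F13b, the carrier subunit of clotting factor XIII, fell to 90.8, 123 and 121 CPM in HFD-337 against 234, 231 and 273 CPM in HFD-338 (log2 fold change -1.14, adjusted p = 2.46e-07). Acute phase proteins gave 8 higher and 5 lower of 33, with a median of 0.37, but 3 higher and 10 lower on recomputed TPM. The edgeR shares were both under those over all genes, 28.8% higher and 29.6% lower. Without HFD-338 replicate 18 or HFD-337 replicate 23, 3 were lower. Saa3, an amyloid A protein of inflammation, was at 33.1, 16.9 and 43.03 CPM in HFD-337, 5.93, 4.70 and 3.80 CPM in HFD-338 and 18.2, 23.8 and 19.9 CPM in HFD-NS (log2 fold change 2.64, adjusted p = 9.89e-06 between HFD-337 and HFD-338), and Saa copies can share reads. The fibrinogen chain Fga fell (log2 fold change -0.53, adjusted p = 0.00342).

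Stress, lysosome and iron genes were split. In the unfolded protein and integrated stress response, 6 of 31 were higher and 8 lower, with a median of -0.12, and 3 higher and 10 lower on recomputed TPM. By edgeR both shares lay under those over all genes tested, 28.8% higher and 29.6% lower. Atf4, the main transcription factor of the integrated stress response, was at 145, 134 and 193 CPM in HFD-337 against 70.9, 72.2 and 66.9 CPM in HFD-338 (log2 fold change 1.17, adjusted p = 2.60e-05), and Dnajb9, a chaperone of the endoplasmic reticulum, had 53.95, 32.7 and 30.6 CPM in HFD-337 and 104, 96.5 and 102 CPM in HFD-338 (log2 fold change -1.37, adjusted p = 0.000606). Of 36 lysosome and autophagy genes, 9 were higher and 15 lower, with a median of -0.17, and 5 higher and 20 lower on recomputed TPM. By edgeR their share lower was above 29.6%, and their share higher was under 28.8%. Among these genes were the protease Ctss, which fell (log2 fold change -2.01, adjusted p = 0.000695), and the regulator Tfeb, which rose (log2 fold change 1.00, adjusted p = 0.00183). Ctss was at 77.3% of the HFD-NS mean in HFD-337 and 305% in HFD-338. Of 28 genes of metallothioneins and iron handling, 8 were higher and 11 lower, with a median of -0.04, and 4 higher and 12 lower on recomputed TPM. Their share higher by edgeR was near the 28.8% over all genes, and their share lower was above 29.6%. Heph, a copper-dependent iron oxidase, was at 0.788, 0.692 and 0.203 CPM in HFD-337 and 7.41, 7.55 and 5.63 CPM in HFD-338 (log2 fold change -3.51, adjusted p = 1.55e-06).

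Genes by which liver cells take up, cleave and sense nucleic acids gave 9 higher and 11 lower of 29 tested, with a median of -0.04, and 4 higher and 11 lower on recomputed TPM. The share higher by edgeR was near the 28.8% over all genes, and the share lower was above 29.6%. Asgr1, a subunit of the asialoglycoprotein receptor through which oligonucleotides with sugar tags enter hepatocytes, was at 577, 721 and 694 CPM in HFD-337 against 374, 355 and 376 CPM in HFD-338 and 452, 473 and 479 CPM in HFD-NS (log2 fold change 0.85 with an SE of 0.0995, adjusted p = 1.30e-06). Its partner Asgr2 rose as well (log2 fold change 1.01, adjusted p = 5.02e-07). Rnaseh1, the nuclease that cleaves RNA paired with DNA, was not called, with 5.12, 5.88 and 6.09 CPM in HFD-337 and 5.02, 5.57 and 3.53 CPM in HFD-338 (log2 fold change 0.27, adjusted p = 0.412). Rnaseh2c, a subunit of the related RNase H2, rose (log2 fold change 1.11, adjusted p = 1.79e-06), and Sting1, the adaptor of DNA sensing, fell (log2 fold change -1.68, adjusted p = 0.000359).

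Several of the largest differences lay outside these lists. Mmp7, a matrix protease of epithelium, was at 0.591, 0.231 and 0 CPM in HFD-337 against 21.5, 19.3 and 22.8 CPM in HFD-338 and 0, 0.372 and 0.316 CPM in HFD-NS (log2 fold change -6.21 with an SE of 0.476, adjusted p = 1.58e-08). Gipc2, a PDZ-domain adaptor, had 1.97, 0.115 and 0 CPM in HFD-337 and 18.7, 19.05 and 15.1 CPM in HFD-338 (log2 fold change -4.83, adjusted p = 3.53e-06). Both were near 0 outside HFD-338, apart from HFD-337 replicate 23 for Gipc2. Without that library, Mmp7 was at -7.00 and Gipc2 at -7.58, and without HFD-337 replicate 26 Gipc2 was at -4.11. The fitted values without replicate 23 rest on 2 counts of Mmp7 and 1 count of Gipc2 in HFD-337. Apela, a ligand of the apelin receptor, had 1 count over HFD-337 against 149 over HFD-338, a ratio of HFD-338 over HFD-337 of 114, 95% counting interval 20.1 to 4518. Among rises, Sult5a1, a sulfotransferase, was at 17.9, 15.9 and 61.9 CPM in HFD-337 against 0.456, 0.866 and 0.785 CPM in HFD-338 and 8.29, 5.96 and 6.96 CPM in HFD-NS (log2 fold change 5.45, adjusted p = 7.63e-05). It was at 4.54 without HFD-337 replicate 27. Fam228b had 7.48, 7.49 and 7.10 CPM in HFD-337 and 0.228, 0.247 and 0.785 CPM in HFD-338 (log2 fold change 4.11 with an SE of 0.43, adjusted p = 3.66e-07), and a fold change of 4.84 without HFD-338 replicate 19. Cfd (complement factor D, also called adipsin), known as a product of fat cells, was at 29.3, 10.03 and 5.28 CPM in HFD-337, 0.798, 0.371 and 1.05 CPM in HFD-338 and 9.57, 5.59 and 14.8 CPM in HFD-NS (log2 fold change 4.29, adjusted p = 0.000383 between HFD-337 and HFD-338). Cfd was at 3.40 without HFD-337 replicate 23. In absolute terms, the abundant plasma protein genes Hpx (hemopexin), at 6819.6, 5022 and 7482 CPM in HFD-337 and 3983, 4281 and 3169 CPM in HFD-338 (log2 fold change 0.76, adjusted p = 0.00265), and Serpina1c (log2 fold change 1.34, adjusted p = 0.000361) were among the largest rises, and Mug1 (log2 fold change -0.61, adjusted p = 0.00272) and the methionine enzyme Mat1a (log2 fold change -0.64, adjusted p = 0.00939) among the largest falls. The call of Hpx was lost on recomputed TPM (0.47, adjusted p = 0.0913).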

How the data were processed

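Per the labels' protocols, liver RNA came from a TRIzol and chloroform extraction, and polyadenylated transcripts were selected. Build mm39 and featureCounts 2.0.1, STAR 2.7.10b, Trim Galore 0.6.10 and Bowtie 1.3.1 are listed in the submitters' processing notes. The deposited counts come, per the file headers, from featureCounts over exons, grouped by gene, with strand ignored and each read given to every gene that it overlaps. Overlapping genes, antisense genes and close copies therefore share reads. The summed exon length deposited beside the counts was used for gene length and for TPM. A second table has 15 columns whose names carry no library number, and they were not used.

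Library totals ran from 3873903 to 9797743 over 26264 genes, 0 of them mitochondrial. All 15 libraries entered 1 fit with edgeR 4.0.16 in R 4.3.3 (TMM scaling, filterByExpr by group, robust quasi-likelihood test), and HFD-337 was set against HFD-338. The SD-NS and HFD-Res libraries therefore helped to set the spread behind each adjusted p. P-values were adjusted by Benjamini-Hochberg across 13189 tested genes, and a gene was called under 0.05. The procedure was also run on simulated counts with far fewer changed genes than were called here, so that run does not test the scaling for these data. Alternatives were a fit of the 6 libraries alone, DESeq2 1.42.0, RLE size factors, no filter on low counts, limma-voom with quality weights (limma 3.58.1), recomputed TPM (limma on log2 of TPM plus 1, at least 1 TPM in 3 libraries) and leaving out each of the 6 libraries. Exon overlaps were found with bedtools 2.31.1. Ratios for genes with 3 or fewer counts in a group carry 95% intervals that cover counting error only.

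Members and gene lists were chosen with earlier results of these data known, so lists are described by counts and medians, with no test of the list. Of 39 lists, every one is a set of textbook markers or pathway genes. Named genes are a fixed set of 29, or called genes without overlap: the 12 largest rises and falls at 2 CPM or more, the 8 largest CPM differences each way, and up to 4 per list and direction at 1 CPM or more. Members of lists with at most 6 tested genes may all be named. Ddx3y, Ifih1, H19, Ly6d, Tlr3 and the promoter matches were named outside this rule, after their values were seen. Coordinates are in mm39, and promoter sequences are RefSeq's, build GRCm38.p6.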

Additional observations from a re-analysis of the deposited data

How the results depend on the processing

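Under the 6 alternatives that kept all libraries and the 6 that left out 1, 81 of 84 counts over all genes and over genes of 200 kb or more stayed within 1.5 times the reported ones. The other 3 were on recomputed TPM, which lowers the median of all genes by 0.23 on the log2 scale: 2194 genes higher, 416 higher by at least 2-fold, and 14 long genes higher. Leaving out 1 library gave 6817 to 7643 called genes, 3288 to 3775 higher, 3488 to 3868 lower, 992 to 1169 at least 2-fold higher and 1823 to 2259 at least 2-fold lower. Long genes were then higher in 35 to 47 and lower in 234 to 257. Stk25 lost its call with no low-count filter (-0.29, adjusted p = 0.0686), in the 6 libraries alone (-0.29, 0.0900) and with limma-voom (-0.29, 0.0655). It ran from -0.34 to -0.20 when 1 library was left out. Of 146 called genes named, 129 kept call and direction under every alternative in which they were tested, Slc7a11 having no value on recomputed TPM. Most were picked for large differences without overlap, so this share does not describe the 7701 calls as a whole. The direction reversed for Fasn on recomputed TPM (-0.10) and for S100a8 without HFD-338 replicate 18 (0.16), neither of them called there or in the reported fit. S100a8, called without HFD-338 replicate 17 or 19 and by DESeq2, ran from -3.40 to 0.16 when 1 library was left out. Of 936 list counts, 102 moved beyond 1.5 times. The cause was not tested for any of these. No paired analysis was possible because the groups share no replicate numbers. Depth limits genes near 1 CPM, where single counts move a fold change.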
